A study of Rattus norvegicus with 28 samples.

Results

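The comparison described here asked whether the effect of methamphetamine (meth) on gene expression in the rat orbitofrontal cortex was the same early and late in withdrawal. It used all 16 orbitofrontal libraries of a series of 28 samples; the 12 central amygdala samples were not analysed here. Sprague Dawley rats had self-administered either meth or saline intravenously, and tissue was punched from the brains of rats taken from the home cage at withdrawal day 2 or day 35. The 4 groups were day 2 saline, day 2 meth, day 35 saline and day 35 meth, with 4 RNA-seq libraries each. Every library held poly(A) RNA pooled from 2 rats, so a replicate is a pool and the spread between single animals was not measured. All animals were operated on and trained, the saline groups included. For these samples the labels say only short or long withdrawal; the days were read from the series' design text.

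Methamphetamine is a psychostimulant that enters monoamine nerve terminals and releases dopamine, noradrenaline and serotonin. The orbitofrontal cortex receives dopamine and noradrenaline input, holds information on the value of outcomes, and projects to the striatum and the amygdala. In rats, responding to drug cues is known to grow over the first weeks after the last session, a course called incubation of craving. A transcript whose difference from saline is present at one withdrawal day and not at another is therefore followed by the difference of differences: the log2 ratio of meth to saline at day 35 minus the same ratio at day 2. A negative value means that the meth effect was lower at day 35, and a positive value that it was higher.

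The shallowest library held 20.33 M reads in genes (M, the prefix mega) and the deepest 48.47 M. Group means at day 2 were 22.7 M for saline and 33.6 M for meth, and at day 35 they were 37.2 M for saline and 41.3 M for meth. Between 17434 and 18371 genes had at least 1 count in a library. The share of reads that overlapped no annotated gene was close to equal at day 2, at 21.5 ± 0.47% (SD, n = 4) in saline and 21.6 ± 0.19% in meth libraries. At day 35 it was 21.7 ± 0.63% in saline and 21.9 ± 0.24% in meth libraries. Reads with several alignments and ambiguous reads were also left out of the gene counts. With these, the share was 31.7% in day 2 saline, 31.7% in day 2 meth, 32.0% in day 35 saline and 32.1% in day 35 meth libraries. The libraries of a group carry the same index, so an effect of index or preparation cannot be told apart from the group. The files give Ensembl identifiers without gene names, and no table used here pairs them. Genes are therefore described by level, direction and size, at most 2 identifiers are printed in each direction, and the tissue label was not checked against marker genes. In pooled tissue, fewer cells of a type and less RNA per cell cannot be told apart.

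The meth effect differed between the days for 21 of 15413 genes tested (0.136%), by edgeR's quasi-likelihood test at a Benjamini-Hochberg adjusted p under 0.05. It was lower at day 35 for 19 genes (0.123% of those tested) and higher for 2 (0.013%). Among the 19 the difference of effects ran from -0.85 to -0.21 on the log2 scale, with a median of -0.38, against a median of -0.0016 over all genes tested. The largest corresponds to a 1.80-fold and the smallest to a 1.15-fold difference of effects. Differences over 1.5-fold were found for 6 of the 21 genes and differences over 1.2-fold for 19.

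The transcript with the smallest p was ENSRNOG00000012404, which stood high in 1 group of the 4. Its levels in day 2 meth libraries were 36.2, 39.3, 38.3 and 39.8 CPM (read counts scaled to the library size, per M reads). In day 2 saline libraries they were 23.6, 22.5, 26.0 and 24.9 CPM. At day 35 they were 23.3, 27.8, 24.8 and 25.4 CPM in meth and 25.3, 22.0, 26.8 and 26.3 CPM in saline libraries. All 4 day 2 meth libraries thus lay above each of the other 12, which overlapped one another across groups. The meth effect was 0.66 on the log2 scale at day 2 (95% interval 0.53 to 0.80) and 0.01 at day 35 (-0.12 to 0.14); intervals here are for each gene alone, not adjusted for the choice of genes. The difference of effects was -0.65 (SE 0.090, interval -0.84 to -0.46, edgeR adjusted p = 0.0125). Between the days, the log2 change was -0.60 in meth and 0.05 in saline libraries (intervals -0.73 to -0.47 and -0.09 to 0.19).

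ENSRNOG00000018018 crossed over instead, above saline at day 2 and below it at day 35. In day 2 meth libraries it stood at 69.7, 61.1, 64.2 and 63.7 CPM, and in day 2 saline libraries at 50.5, 51.6, 54.5 and 53.6 CPM. At day 35 the meth libraries held 46.0, 48.6, 55.5 and 45.2 CPM and the saline libraries 63.1, 58.6, 56.1 and 56.9 CPM. Meth and saline libraries did not overlap at either day, and the direction between them was opposite. The meth effect was 0.30 at day 2 (95% interval 0.17 to 0.42, edgeR adjusted p = 0.0586) and -0.27 at day 35 (-0.39 to -0.15, edgeR adjusted p = 0.542), so neither day alone passed the test over all genes. The difference of the effects was -0.56 (SE 0.082, interval -0.74 to -0.39) and did pass, with an edgeR adjusted p of 0.0125. Its largest change over the days was in meth libraries, by -0.40, beside 0.16 in saline libraries.

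Both transcripts with a higher meth effect at day 35 were less abundant. ENSRNOG00000050292 rested on 102 to 228 reads per library. Its levels at day 2 were 4.24, 3.81, 4.68 and 3.85 CPM in meth and 5.20, 4.96, 4.93 and 5.55 CPM in saline libraries. At day 35 they were 4.20, 5.29, 5.17 and 4.41 CPM in meth and 3.78, 3.12, 3.33 and 3.71 CPM in saline libraries. The groups did not overlap at either day, with meth below saline at day 2 and above it at day 35. The effects were -0.32 (95% interval -0.54 to -0.10, edgeR adjusted p = 0.259) and 0.45 (0.24 to 0.66, edgeR adjusted p = 0.542), so neither passed alone. Their difference was 0.76 (SE 0.14, edgeR adjusted p = 0.0496). Here the larger change over the days was in saline libraries, by -0.56 (interval -0.78 to -0.34, edgeR adjusted p = 0.151), beside 0.20 in meth libraries (-0.0036 to 0.41).

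ENSRNOG00000050706 was lowest in day 2 meth libraries, at 12.4, 13.1, 12.0 and 12.6 CPM, below the day 2 saline libraries at 18.5, 17.0, 15.9 and 15.6 CPM. At day 35 the meth libraries held 16.4, 16.1, 15.5 and 15.2 CPM and the saline libraries 12.6, 16.6, 15.3 and 14.4 CPM. The groups were apart at day 2 and overlapped at day 35. The effect was -0.42 at day 2 (95% interval -0.57 to -0.26) and 0.11 at day 35 (-0.04 to 0.25), a difference of 0.53 (SE 0.10, edgeR adjusted p = 0.0496).

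**Figure D1:**
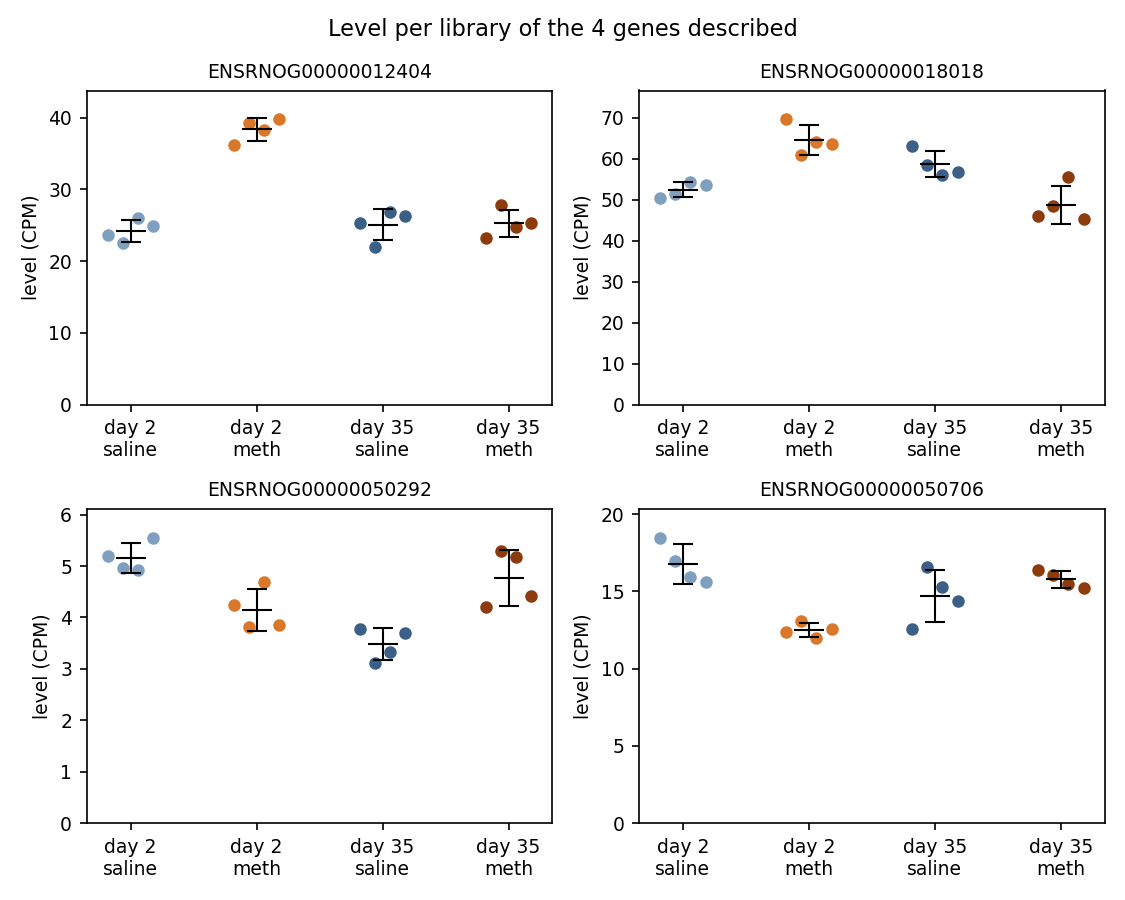
Level of each of the 4 genes in CPM (vertical axes, from 0) in every library, by group; points are libraries, and the bar with caps is the mean ± SD of 4 libraries. The day 2 meth libraries of ENSRNOG00000012404 sit between 36.2 and 39.8 CPM, above all others, while ENSRNOG00000018018 and ENSRNOG00000050292 change the order of meth and saline between the days.

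The other 17 genes with a lower effect at day 35 were, like ENSRNOG00000018018, above saline at day 2 and below it at day 35 in their fitted means. Over all 19, the effect at day 2 was positive, from 0.14 to 0.66 with a median of 0.24, and the effect at day 35 ran from -0.46 to 0.01 with a median of -0.12. A gene selected for a low day 35 effect relative to day 2 is pushed toward these signs, so they are given as a description. The day 2 effect was larger in size than the day 35 effect for 16 of the 19, and for the remaining 3 the day 35 effect was the larger. Over all 15413 genes tested, the day 2 effect was the larger for 8835. Meth and saline libraries did not overlap at day 2 for 15 of the 19 genes (5.45% of all genes tested) or at day 35 for 10 (3.46%). The 4 day 2 meth libraries lay above all other 12 for 8 of the 19 (0.564%). ENSRNOG00000012404 was 1 of these 8, whereas ENSRNOG00000018018 was not, because a day 35 saline library reached 63.1 CPM.

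**Figure D2:**
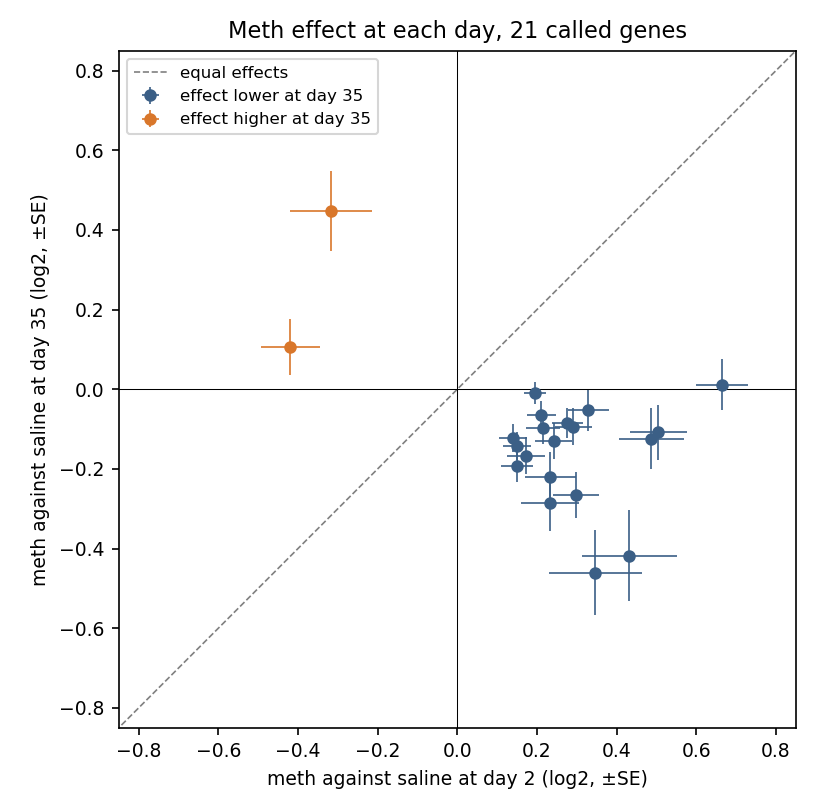
Meth against saline at day 2 (horizontal axis) and at day 35 (vertical axis), both in log2 with SE bars, for the 21 genes called; the dashed line marks equal effects. The 19 genes with a lower effect at day 35 sit to the lower right, with day 35 effects from -0.46 to 0.01, and the 2 with a higher effect to the upper left.

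Seen over withdrawal, the log2 change from day 2 to day 35 in meth libraries was negative for these 19 genes, and 17 of them passed the test of that change, which called 1.83% of all genes tested in either direction (edgeR adjusted p up to 0.0604 over the 19). The change in meth libraries ran from -0.63 to -0.14 on the log2 scale with a median of -0.32. In saline libraries it ran from -0.05 to 0.40 with a median of 0.09. The 2 sets of meth libraries did not overlap for any of the 19 (19 of 19, beside 11.4% of all genes tested), and the 2 sets of saline libraries did not overlap for 5 (3.86%). For 6 of the 19 the saline change had an unadjusted p under 0.05 and was positive in each, beside 648 such positive changes among all 15413 genes tested. The change was larger in size in meth than in saline libraries for all 19, but not for ENSRNOG00000050292 among the 2 genes of the other direction. Over all 15413 genes tested, it was larger in meth for 8578. All these changes reuse the libraries that enter the difference of effects, and they are its components rather than separate evidence. Across all genes, edgeR called 17 genes between meth and saline at day 2 (0.11%) and 282 between the days in meth rats (1.83%). It called 0 between meth and saline at day 35, where the unadjusted p was under 0.05 for 902 genes and DESeq2 called 5 of 15413. It also called 0 between the days in saline rats, where the unadjusted p was under 0.05 for 1338. There DESeq2 called 37 of the 7644 genes to which it gave an adjusted p.

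**Figure D3:**
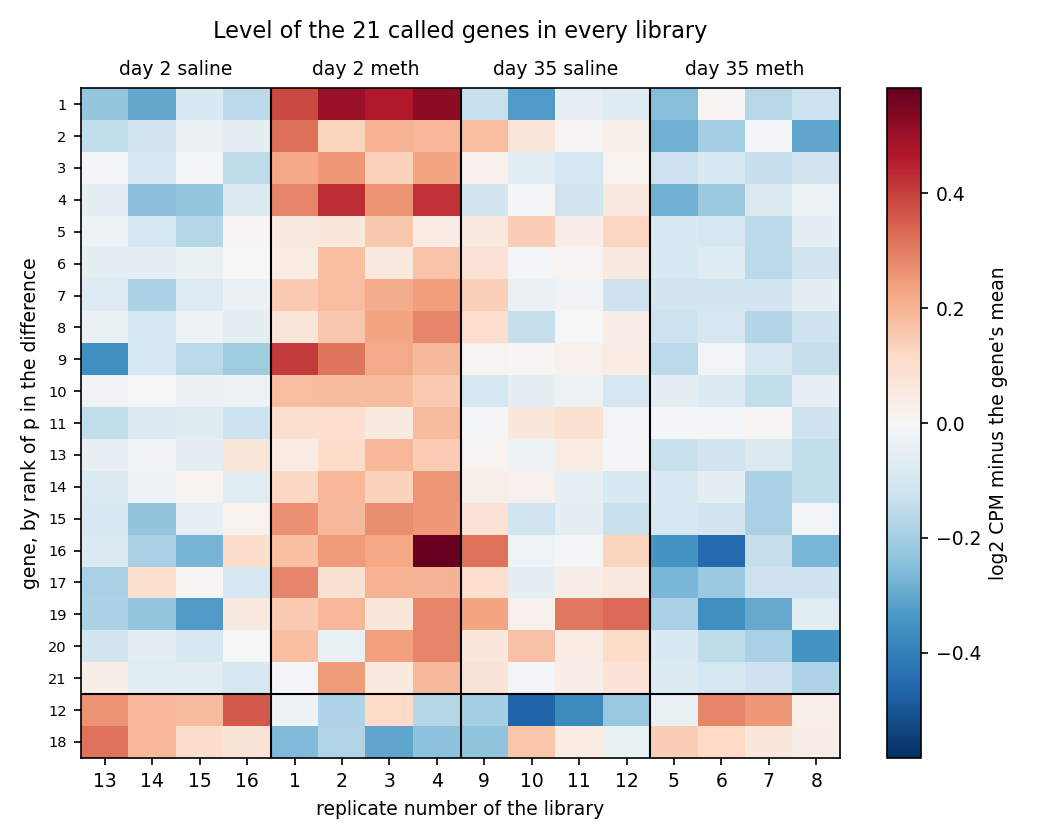
Colour gives log2 CPM minus the gene's mean over 16 libraries, for each of the 21 called genes (rows, numbered by rank of p) in each library (columns, by group and replicate number); the 2 rows under the line are the genes with a higher effect at day 35. The day 2 meth columns are the warmest in most of the upper 19 rows, and the day 35 meth columns are the coolest in most of them.

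The called genes spanned a wide range of abundance. The 19 genes with a lower effect at day 35 had a median level of 56.2 CPM (range 2.77 to 1530), and the 2 others stood at 4.39 and 14.9 CPM, against a median of 17.7 CPM over all genes tested. The most abundant called transcript averaged 1530 CPM. Its meth effect was 0.24 at day 2 and -0.13 at day 35, and the difference of -0.37 (SE 0.064) had an edgeR adjusted p of 0.0286. The least abundant, at 2.77 CPM, differed by -0.81. By quartile of level, from the lowest to the highest, 1, 7, 3 and 10 genes were called, and the median SE of the difference was 0.312, 0.118, 0.0717 and 0.0526. A called gene needed a difference of at least 5.11 times its SE, so a gene with the median SE of the lowest quartile would have needed a larger difference than any of the 21 showed.

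**Figure D4:**
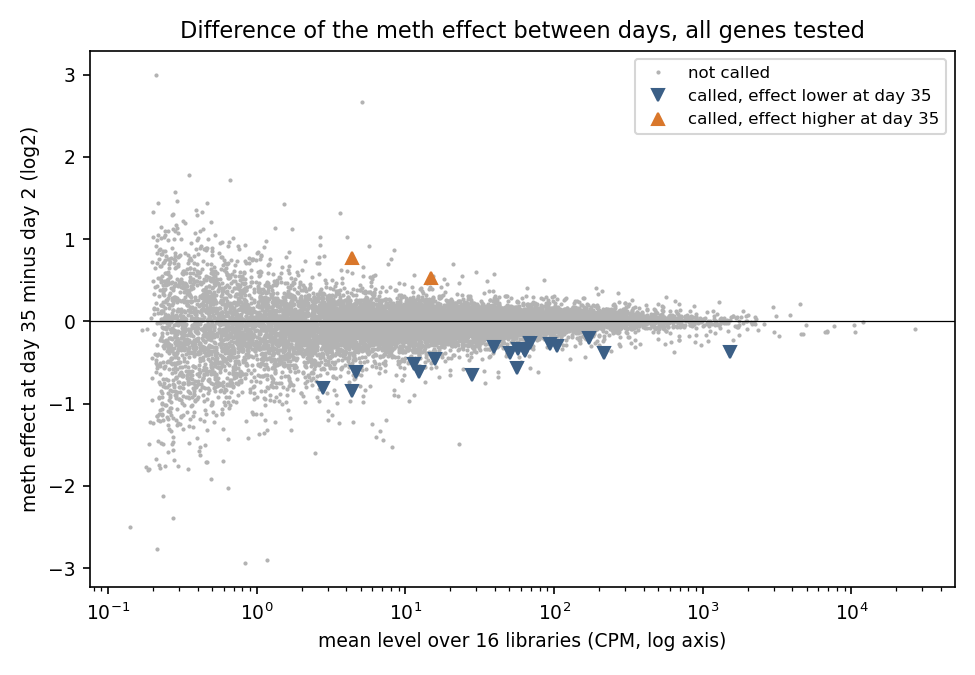
Difference of the meth effect, day 35 minus day 2, in log2 (vertical axis) against the mean level in CPM on a log axis (horizontal), for all 15413 genes tested; triangles are the 21 called genes. The scatter narrows with level, and the called genes extend from 2.77 to 1530 CPM, 19 of them below 0.

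Over all genes tested, the called ones included, the unadjusted p was under 0.05 for 1482 (9.62%), and 771 would be expected on average if no gene differed. Genes are not independent of one another, and the spread of such a count around its average was not estimated. The effect was lower at day 35 for 916 of the 1482 genes and higher for 566. This imbalance was not even over abundance. Below the median level 525 genes were lower and 161 higher, and at or above it 391 were lower and 405 higher. In the highest quartile 173 were lower and 254 higher. The groups differed in depth, so the counts were repeated with every library thinned to 20.33 M reads, the depth of the shallowest. Below the median level 401 were then lower and 140 higher, and at or above it 342 were lower and 414 higher. Thinning left 7023 genes tested below the median level in place of 7706, and 7707 at or above it as before. The split was chosen after the data were seen, and none of these genes is called by the count alone.

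Across all 15413 genes the meth effects at the 2 days, which come from separate libraries, correlated weakly and negatively (Pearson r = -0.13, Spearman rho = -0.10). At 10 CPM or more (9443 genes) r was also negative, at -0.10. The effects had opposite signs for 52.6% of all genes tested, and their SD at 10 CPM or more was 0.0839 at day 2 and 0.0678 at day 35 on the log2 scale. Genes are not independent replicates, and the effects share the normalization of 1 fit, so these values describe the libraries and carry no p.

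For ENSRNOG00000012404, the transcripts whose log2 CPM followed it most closely over the 16 libraries reached Pearson r from 0.874 (the fifth) to 0.914 (the first). Of these 5, 3 were among the 19 genes with a lower effect at day 35 (0.123% of all genes tested), which were chosen on the same 16 libraries. No other gene exceeded r = 0.9 besides the first. All 16 libraries enter this measure, including the 4 day 2 meth libraries that stand apart for this transcript.

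The labels place 1 library of each group on every sequencing lane, and the difference of effects could be read within each of the 4 lanes. For ENSRNOG00000012404 it was -0.73, -0.47, -0.67 and -0.73 in lanes 1 to 4, and for ENSRNOG00000018018 it was -0.92, -0.52, -0.25 and -0.58. ENSRNOG00000050292 gave 0.44, 1.13, 0.70 and 0.77, and ENSRNOG00000050706 gave 0.95, 0.32, 0.43 and 0.39. The sign was the same in every lane for these 4 genes. It was negative in all 4 lanes for each of the 19 genes (9.89% of all genes tested) and positive in all 4 for the 2 others (8.87%), as is favoured by selecting on the same libraries. With lane as a replicate block in the model 4 genes were called in place of 21, all 4 of them lower at day 35, and ENSRNOG00000050292 and ENSRNOG00000050706 did not pass (edgeR adjusted p = 0.0952 and 0.0868).

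The number of genes called depended on single libraries, while the direction of each called gene did not. Only 8 of the 21 genes had an edgeR adjusted p under 0.03. The other 13 were tied at an adjusted p of 0.0496, and the first gene outside the threshold was at 0.0658. DESeq2, which gave an adjusted p to 13022 genes, called 83 of them, all 21 included. In the edgeR fit, the next 10 genes by p, with adjusted p from 0.0658 to 0.102, all had a lower effect at day 35, by 1.23- to 2.52-fold. Further from the threshold the direction was more mixed. At an edgeR adjusted p under 0.2, the called genes included, the effect was lower at day 35 for 70 genes and higher for 24. With 1 library left out at a time, the number of genes called was between 0 (without day 2 saline replicate 14, with 1412 genes at an unadjusted edgeR p under 0.05) and 17 (without day 2 meth replicate 1, 11 of them among the 21). At most 5 genes were called in 10 of the 16 such fits. None of the 21 was called in all 16 fits, and 5 were called in none. ENSRNOG00000012404 and ENSRNOG00000018018 each passed in 15 of 16, missing without day 2 saline replicate 14 (edgeR adjusted p = 0.0556 and 0.0626), with the difference of effects between -0.70 and -0.61 and between -0.63 and -0.52. ENSRNOG00000050292 passed in 0 and ENSRNOG00000050706 in 1 of the 16 fits, with differences of 0.72 to 0.83 and 0.46 to 0.59. All 21 genes kept their sign in each of these 16 fits, which share most of their libraries with the fit that selected the genes.

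**Figure D5:**
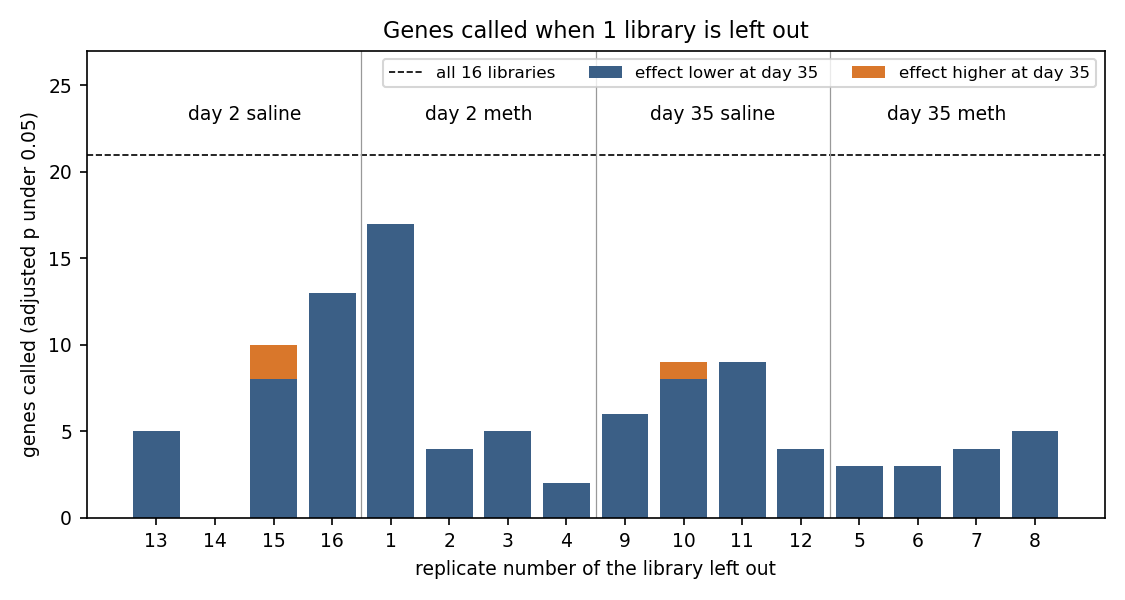
Number of genes called for the difference of the meth effect (vertical axis, bars from 0) when 1 library is left out, by the replicate number of that library; bar colours give the direction and the dashed line the 21 genes called with all 16 libraries. The count falls to 0 without day 2 saline replicate 14 and is highest, at 17, without day 2 meth replicate 1.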

How the data were processed

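Poly(A) RNA of 16 orbitofrontal libraries, each a pool of 2 rats, was sequenced on an Illumina HiSeq after TruSeq RNA v2 preparation, per the labels' protocols. TopHat, HTSeq, limma and the genome build rn4 are named per the submitters' processing notes; the sources used here give no versions, annotation release or strand setting, so reads of overlapping or antisense genes cannot be told apart. The deposited values are raw counts for 26405 Ensembl identifiers. The 5 HTSeq summary rows, 31.1 to 32.6% of the reads, were left out. None of the identifiers (0) matched the gene table, so the 30 gene lists and the parts of the naming rule that use symbols could not be run. The rule's last part named the 2 called genes with the smallest p in each direction. The comparison and lists were chosen with earlier results of these data known.

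Genes passing edgeR's filterByExpr (15413) were scaled with TMM, and a model of 4 group means (glmQLFit with the robust option) was tested by glmQLFTest in edgeR 4.0.16 under R 4.3.3, with Benjamini-Hochberg adjustment over all genes tested. SE is the log2 value divided by the square root of F, and 95% intervals use the moderated degrees of freedom. CPM are from the counts and TMM-scaled library sizes. Lane-wise differences use log2 CPM with a prior count of 2. Alternatives were RLE and upper quartile scaling, 2 other filters, no robust step, lane as a block, DESeq2 1.42.0, limma-voom 3.58.1 (also with sample weights), thinning, and leaving libraries out. The code was also run on simulated counts, drawn independently for each gene, with changes in day 35 meth libraries only and no lane or index effect. That run does not bear on how stable the calls are in these libraries.

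No pair of libraries in a group was identical, and the chi-square of their counts was 5.19 to 17.01 times its degrees of freedom. They thus differed by more than repeated counting of the same library would give, and all were treated as replicates. The check cannot show that the pools come from separate animals. Nothing says that same-lane pools share animals. Each library's deviation from its group mean was compared between libraries. In the 24 pairs that shared a lane, the mean correlation was 0.026, with a lowest value of -0.272 and a highest of 0.24. In the remaining 72 pairs the mean was -0.0088. The best match of a library was its own lane in 8 of 16 cases. With 4 lanes to choose from, an even split is not the value to compare this count with. The count to be had without any lane effect was not estimated.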

Additional observations from a re-analysis of the deposited data

Results flagged for a closer look

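The meth effect differed between the days by a direct test for 21 genes, among them ENSRNOG00000012404 (-0.65 on the log2 scale), ENSRNOG00000018018 (-0.56), ENSRNOG00000050292 (0.76) and ENSRNOG00000050706 (0.53). With lane as a replicate block 4 genes were called, and ENSRNOG00000050292 and ENSRNOG00000050706 did not pass (edgeR adjusted p = 0.0952 and 0.0868). These 2 passed in 0 and 1 of the 16 fits with 1 library left out.

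A single library stood apart from the other 3 of its group in 5 of 32 sets of 4 values, which cover the 4 genes and 4 library measures. Chance gives about 1 in 20, and the sets share libraries. None of the 5 concerned the level of one of the 4 genes. Day 2 saline replicate 13 had 20.33 M gene counts, against 23.19 to 23.54 M in the others of its group. Day 2 meth replicate 1 had 24.97 M gene counts (others 35.41 to 37.48 M), 17806 genes detected (others 18119 to 18140) and 10.29% of reads with several alignments (others 9.17 to 9.34%). Day 35 saline replicate 9 had 18348 genes detected (others 18042 to 18057). Without these libraries in turn, 5, 17 and 6 genes were called for the difference of effects. At an unadjusted p under 0.05 below the median level, 484 genes were lower and 213 higher without day 2 saline replicate 13. Without day 2 meth replicate 1 they were 533 and 188, and without day 35 saline replicate 9 they were 413 and 139. These fits share most of their libraries and the split chosen after the data were seen, which favours a like imbalance. No other fit with 1 library left out was counted this way.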

How the results depend on the processing

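The count of 21 genes was 8 with median-ratio (RLE) size factors and 8 with upper quartile scaling, 9 with a filter at 1 CPM in 4 libraries, 9 without the robust step, 9 with limma-voom and 9 with its sample weights, and 6 after thinning; none of these called a gene with a higher effect at day 35. With lane as replicate block it was 4 and with no filter 18. With DESeq2 it was 83 of 13022 genes with an adjusted p (26 higher and 57 lower, all 21 among them). Omitting 2 libraries at once (replicate 4 of day 2 meth, replicate 13 of day 2 saline) gave 0, with 1250 genes at an unadjusted edgeR p under 0.05. With 1 library left out it ranged from 0 to 17. All 21 genes kept their sign in each of the 27 alternatives, as is favoured by selecting them on the same libraries. ENSRNOG00000012404 and ENSRNOG00000018018 missed the threshold in 2 each (adjusted p up to 0.0731), ENSRNOG00000050292 in 25 and ENSRNOG00000050706 in 24 (up to 0.234). DESeq2 gave an adjusted p to a different number of genes in each comparison, so its counts are not on the same base as edgeR's. Between meth and saline it called 115 of 5552 such genes at day 2 and 5 of 15413 at day 35. Between the days it called 554 of 14217 in meth and 37 of 7644 in saline rats. With 1 library left out, the counts were 6 to 21 at day 2, 0 to 1 at day 35, 104 to 305 in meth and 0 to 2 in saline rats. The cause of these changes was not tested. The medians of the gene lists could not be computed. The SE of the difference was largest in the lowest quartile of levels (median 0.312), and how it changes with depth was not tested.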
